A study of Homo sapiens with 14 samples.

Results

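The serine/arginine-rich (SR) proteins and the heterogeneous nuclear ribonucleoproteins (hnRNPs) were followed here as 1 group of splicing factor genes. The members are the genes whose symbols are SRSF followed by a number or begin with HNRNP, with pseudogenes left out, and they number 38 of the 26732 genes listed for both cell lines: 12 SRSF genes and 26 HNRNP genes. Their RNA was measured by RNA sequencing in A549 and H1792, established human lung adenocarcinoma cell lines, 48 h after the addition of 0.1 µM AMG900, an inhibitor of the Aurora kinases that drive mitosis, or of the solvent DMSO. A549 has 4 DMSO and 4 AMG900 libraries and H1792 has 3 of each, so AMG900 can be compared with DMSO within each line, and the lines with each other. The labels name no genetic change in either line, DMSO was the sole control, A549 was grown in DMEM and H1792 in RPMI medium, and every library holds the RNA of a whole culture.

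SR proteins bind exonic enhancer sequences through RNA recognition motifs (RRMs) and recruit the spliceosome through a tail rich in arginine and serine, which SRPK and CLK kinases phosphorylate. The hnRNPs coat new transcripts in the nucleus, many of them opposing SR proteins at silencer sequences, and act besides in RNA packaging, export and stability. Genes of both families are known to limit their own output by splicing in poison exons that send the transcript to nonsense-mediated decay (NMD).

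Counts of whole reads per gene were compared as CPM, the counts set against the library total after scaling by trimmed-mean (TMM) factors. The libraries held 4254644 to 18962883 counts in A549 and 42760874 to 79902934 in H1792, so that changes of low genes were better resolved in H1792. In A549 the first DMSO library was both the smallest and the farthest from its group, with a median absolute deviation over all tested genes of 0.30 on the log2 scale against 0.12 to 0.17 in the other A549 libraries, and in H1792 the first DMSO library was the lowest for the members, with a median deviation of -0.13. Calls of members gained or lost without these libraries are named with the counts of called members or beside the gene. Both lines expressed the epithelial keratins KRT7 (at least 3500 CPM in A549 and 881 CPM in H1792), KRT8 and KRT18, while the leukocyte markers PTPRC and CD3E had at most 4 counts in a library. The third leukocyte marker, CD68, a lysosomal gene of macrophages that other cells also express, set the sum of that list, which was 58.3 to 83.2 CPM with DMSO and 149 to 170 CPM with AMG900 in A549, and 97.3 to 113 and 166 to 192 CPM in H1792. The sum of 6 epithelial markers was 7973 to 10385 CPM with DMSO and 10747 to 12291 CPM with AMG900 in A549, and 1540 to 1926 and 1934 to 1973 CPM in H1792, while 3 endothelial markers summed to at most 16.1 CPM; the part of these in the results was not tested. The epithelial adhesion gene EPCAM was under 1 CPM in A549 (highest 0.539) and CDH1 was near that level in H1792 (highest 1.04). In whole cultures a lower share of cells expressing a gene and less of its RNA per cell cannot be told apart.

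Together the members took a smaller share of all counts after AMG900. In A549 the share was 0.808 ± 0.0155% with DMSO (SD, n = 4, range 0.792 to 0.83%) and 0.526 ± 0.0228% with AMG900 (n = 4, range 0.495 to 0.548%), a ratio of 0.651, and no library of one treatment reached the range of the other (exact two-sided permutation test, p = 0.0286, the smallest that 4 against 4 allow). In H1792 it was 0.698 ± 0.0398% with DMSO (n = 3, range 0.657 to 0.736%) and 0.606 ± 0.00543% with AMG900 (n = 3, range 0.600 to 0.610%), a ratio of 0.868, again with no overlap (exact two-sided permutation test, p = 0.1, the smallest that 3 against 3 allow).

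Of the 38 members, 34 had enough counts to be tested in each line. HNRNPCL1, HNRNPCL3 and HNRNPCL4, retrocopies related to HNRNPC, had no count in any library, and the read-through entry HNRNPUL2-BSCL2 had 5 counts summed over A549 and 15 over H1792. A gene was called changed at a false discovery rate (FDR) below 0.01 in the quasi-likelihood test of edgeR, its p-values adjusted over all genes tested by the Benjamini-Hochberg method. In A549, 23 of 34 members fell, where 17.8% of all 13174 tested genes did, and 0 rose, where 17.2% of all genes did (DESeq2 also called 0 members higher). In H1792, 14 members fell, where 18.8% of all 15017 tested genes did, and 1 rose, where 16.2% did. The median log2 fold change of the tested members was -0.53 in A549 and -0.19 in H1792, while that of all tested genes was -0.01 and 0.01. Leaving out the first DMSO library gave 26 fallen members in A549, with HNRNPK, HNRNPUL2 and SRSF11 added, and in H1792 it gave 20 fallen, with HNRNPA0, HNRNPD, HNRNPH3, HNRNPK, SRSF4 and SRSF6 added, and 1 risen. Every AMG900 library lay below every DMSO library for 24 members in A549 (22% of all tested genes) and for 19 in H1792 (29.6%), and above for 0 (21.9%) and 3 (30.1%).

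**Figure D1:**
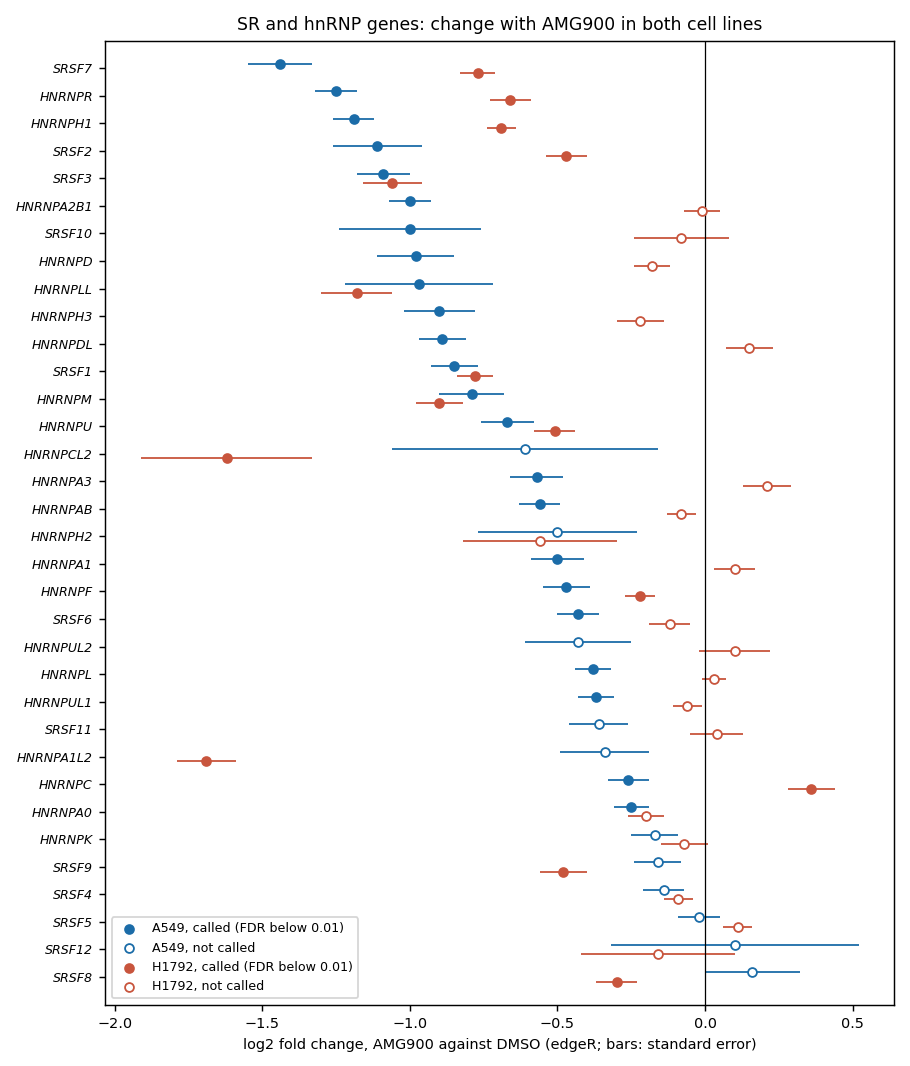
Log2 fold change (AMG900 against DMSO, x axis) of the 34 tested members (y axis, ordered by the A549 value) in A549 (blue) and H1792 (red); bars are standard errors and filled points are called at an FDR below 0.01. All 23 called A549 points lie left of 0, and HNRNPC is the sole filled point to the right of 0, in H1792.

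The members that fell in both lines were 10, where 9.31% of the 12625 genes tested in both did, 4 SR genes (SRSF1, SRSF2, SRSF3, SRSF7) and 6 hnRNP genes (HNRNPF, HNRNPH1, HNRNPLL, HNRNPM, HNRNPR, HNRNPU). HNRNPC alone fell in A549 and rose in H1792, as 0.673% of genes did, and 0 members rose in both, as 7.29% did. Another 12 members were called in A549 and not in H1792, 4 (SRSF8, SRSF9, HNRNPA1L2, HNRNPCL2) were called in H1792 and not in A549, and 7 (SRSF4, SRSF5, SRSF11, SRSF12, HNRNPH2, HNRNPK, HNRNPUL2) were called in neither.

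Promoter sequence was at hand for 35 members, in 49 windows covering the 250 bases before a RefSeq start site (GRCh38.p14), while HNRNPA1, SRSF2 and HNRNPCL3 had no window. The letters searched on both strands were GGGCGG for the GC box, CCAAT for the box of that name, TATAAA for the box at the start of many genes, TTTGAA for the CHR of genes of the cell cycle, TTTCCCGC and TTTGGCGC for E2F sites and CCGGAAGT for ETS sites, and none of these holds another whole on either strand. The GC box stood in 57.1% of the members' windows and in 42.6% of 35116 windows of all genes, the CCAAT box in 49% and 32%, the TATA box in 12.2% and 10.7%, the CHR in 8.16% and 13.3%, the first E2F form in 6.12% and 1.39%, the second in 0% and 0.55%, and the ETS site in 6.12% and 3.42%. Each 6.12% is 3 windows. Some members hold more than 1 window, and windows were not limited to genes expressed in these lines. The windows of SRSF3 and HNRNPR are shown, since these members fell in both lines (HNRNPR not after the GC correction described next) and hold matches, with the letters found in capitals (ATTGG is CCAAT on the other strand) and the bases nearest the start left out. Counted from the start, the SRSF3 window has CCAAT letters at -70 and -55 and TATAAA at -30 (chr6:36594112-36594351, plus strand). The HNRNPR window has CCAAT letters at -213 and -188 (chr1:23344355-23344534, minus strand).
SRSF3: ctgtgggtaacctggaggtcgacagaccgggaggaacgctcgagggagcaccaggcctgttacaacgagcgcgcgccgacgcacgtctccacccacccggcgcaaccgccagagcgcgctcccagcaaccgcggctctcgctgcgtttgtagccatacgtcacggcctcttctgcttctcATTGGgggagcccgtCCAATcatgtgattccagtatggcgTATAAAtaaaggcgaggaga
HNRNPR: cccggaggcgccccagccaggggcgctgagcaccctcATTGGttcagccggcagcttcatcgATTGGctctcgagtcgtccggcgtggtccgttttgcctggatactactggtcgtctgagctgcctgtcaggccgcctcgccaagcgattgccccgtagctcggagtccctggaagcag
The windows of SRSF1 and HNRNPM, which also fell in both lines, held none of the letters searched.

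Base composition moved with the fold change over all genes. The transcripts of the tested members had a median GC content of 42.3%, against 49.3% over the tested genes in A549 and 49.5% in H1792, and over all genes the log2 fold change was lower at lower GC content (Spearman's rho across genes, 0.499 in A549 and 0.481 in H1792, as a description). Among the 34 tested members the same rho was 0.303 in A549 and 0.0536 in H1792, and -0.286 and -0.446 after the correction described next. The members that fell had a median GC content of 41.0% in A549, against 45.1% for the others, but 44.1% in H1792, against 41.9%. When the GC trend of each library was fitted and taken out, 17 members were called lower (18.7% of genes) and 1, SRSF5, higher (13.8%) in A549, and 16 lower (23%) and 9 higher (14.5%) in H1792, so that the split of calls in H1792 went from 14 lower and 1 higher to 16 and 9. It ended 7 calls in A549 (HNRNPA0, HNRNPA1, HNRNPA3, HNRNPC, HNRNPLL, SRSF6 and SRSF10) and 2 in H1792 (HNRNPR and SRSF8). It added SRSF4 as lower in both lines, HNRNPAB, HNRNPL and HNRNPUL1 as lower in H1792, SRSF5 as higher in both lines, and SRSF6, SRSF10, SRSF11, HNRNPA1, HNRNPA2B1, HNRNPA3 and HNRNPK as higher in H1792. The correction removes any change that follows GC content, whatever its origin, and which part of the members' change belongs to GC content was not tested.

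**Figure D2:**
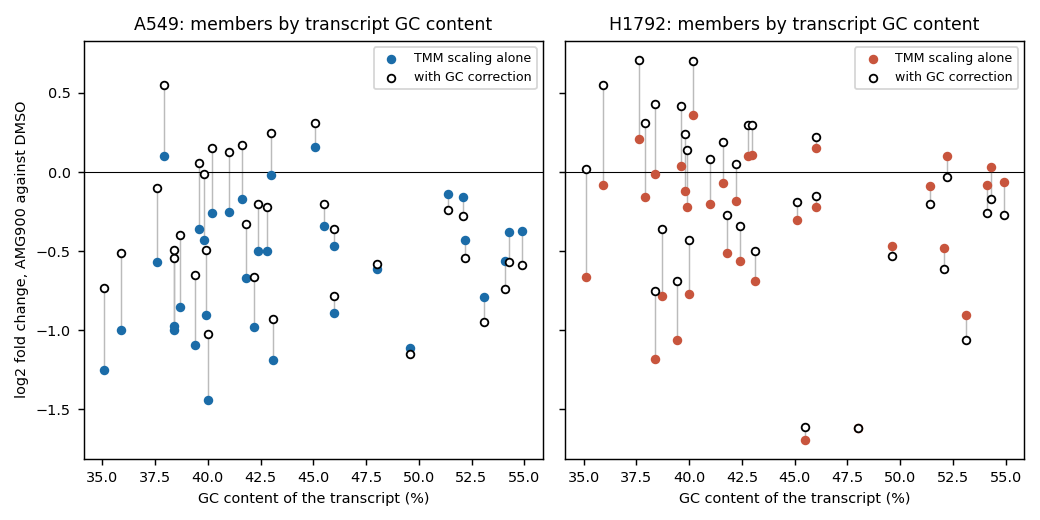
Log2 fold change (AMG900 against DMSO, y axis) of the 34 tested members against the GC content of their transcripts (x axis, %) in A549 (left) and H1792 (right), as fitted (filled) and after the GC correction (open). Members of low GC content moved up with the correction, and in H1792 HNRNPR, the member of lowest GC content (35.1%), went from -0.66 to 0.02.

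The SR genes were followed first. Of 12 tested, 6 fell in each line, where 17.8% of all tested genes did in A549 and 18.8% in H1792, and none rose, where 17.2% and 16.2% did. Their median log2 fold change was -0.40 in A549 and -0.23 in H1792.

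SRSF7 (chr2:38970741-38978636, minus strand, positions here and for the genes that follow from the GENCODE annotation of GRCh37), the SR protein with a zinc knuckle that links splicing to mRNA export, had the lowest log2 fold change of all members in A549. It measured 146, 108, 107 and 101 CPM in the A549 DMSO libraries and 45.4, 40.4, 41.2 and 42.3 CPM in the AMG900 libraries. In H1792 the DMSO libraries gave 97.4, 90.9 and 93.2 CPM and the AMG900 libraries 52.2, 54.9 and 57.8 CPM. In both lines all AMG900 libraries lay below all DMSO libraries. For SRSF7 the log2 fold change was -1.44 ± 0.11 (SE) in A549 (adjusted p = 8.9e-08) and -0.77 ± 0.06 in H1792 (adjusted p = 7.8e-06). The decrease was smaller in H1792 by 0.58 ± 0.13 (interaction, adjusted p = 0.00309), a call that was lost without the third H1792 AMG900 library (0.55, adjusted p = 0.0121).

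SRSF3 (chr6:36562130-36573377, plus strand), a small SR protein with 1 RRM that also acts in export and polyadenylation, fell in both lines. It gave 212, 172, 205 and 180 CPM with DMSO and 102, 91.4, 78 and 89.6 CPM with AMG900 in A549. H1792 had 218, 166 and 164 CPM with DMSO and 82.1, 88 and 92.2 CPM with AMG900. The first H1792 DMSO library was the highest of its group, and the treatments did not overlap in either line. For SRSF3 the log2 fold change was -1.09 ± 0.09 in A549 (adjusted p = 3.8e-07) and -1.06 ± 0.10 in H1792 (adjusted p = 2.5e-05). The lines' changes differed by -0.05 ± 0.15, which was not called (adjusted p = 0.856) and changed sign between scalings.

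SRSF1 (chr17:56078280-56084707, minus strand), the founding SR protein with 2 RRMs and a known proto-oncoprotein, also fell in both lines. Its A549 libraries held 221, 189, 193 and 190 CPM with DMSO and 120, 108, 105 and 106 CPM with AMG900. Its H1792 libraries held 108, 117 and 112 CPM and 65, 61.4 and 69.4 CPM. Every AMG900 value was below every DMSO value of its line. For SRSF1 the log2 fold change was -0.85 ± 0.08 in A549 (adjusted p = 5.6e-07) and -0.78 ± 0.06 in H1792 (adjusted p = 8.9e-06), with a difference of -0.01 ± 0.10 whose sign changed between scalings (adjusted p = 0.985).

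SRSF2 (chr17:74730197-74733415, minus strand), which also helps RNA polymerase leave its pause near the start of genes, shares exon positions with MFSD11 on the other strand. Since the counting strand is not given in the sources used here, reads of the pair cannot be told apart. Exon positions are likewise shared with genes on the other strand by SRSF9 (GATC), HNRNPAB (PHYKPL), HNRNPH3 (RUFY2) and HNRNPUL1 (TGFB1). SRSF9 also shares them with NRAV on its own strand. SRSF2 gave 244, 140, 148 and 144 CPM with DMSO and 71.7, 74.8, 72.7 and 90.4 CPM with AMG900 in A549. In H1792 it gave 164, 134 and 150 CPM and 105, 108 and 111 CPM. The first A549 DMSO library stood far above the other A549 DMSO libraries, which were themselves above all AMG900 libraries. For SRSF2 the log2 fold change was -1.11 ± 0.15 in A549 (adjusted p = 3.6e-05) and -0.47 ± 0.07 in H1792 (adjusted p = 3.9e-04, but 0.0182 when all 14 libraries were fitted together). The interaction of 0.55 ± 0.20 was not called (adjusted p = 0.0519, and down to 0.00683 under the alternatives). It was called in 0 of 14 fits without 1 library.

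The remaining SR genes were called in at most 1 line with all libraries and no GC correction. None of them had a called interaction in that fit, where SRSF9 had the lowest adjusted p (-0.40 ± 0.12, adjusted p = 0.0193). SRSF6, a 2-RRM protein, fell in A549 from 134 ± 4 to 99.4 ± 5.55 CPM (-0.43 ± 0.07, adjusted p = 1.6e-04), but its A549 value was -0.01 after the GC correction. SRSF10, which represses splicing when dephosphorylated in heat shock and mitosis, fell in A549 from 8.05 ± 2.81 to 4.22 ± 0.727 CPM (-1.0 ± 0.24, adjusted p = 0.00358). The first A549 DMSO library lay within its AMG900 range, and the call was lost in 5 of 8 fits that left out 1 library and after the GC correction (-0.51, adjusted p = 0.116), which in H1792 made SRSF10 higher (0.55, adjusted p = 0.00512, against -0.08 without it). SRSF9, a close relative of SRSF1, fell in H1792 from 169 ± 21.9 to 121 ± 4.37 CPM (-0.48 ± 0.08, adjusted p = 7.9e-04). SRSF8, a retrocopy of SRSF2, fell in H1792 by 18.6% (-0.30 ± 0.07, adjusted p = 0.00692), a call lost in 5 of 6 fits without 1 library and after the GC correction (-0.19, adjusted p = 0.0252). SRSF4, SRSF5, SRSF11 and SRSF12 were called in neither line, with log2 fold changes from -0.36 (SRSF11 in A549, adjusted p = 0.0102) to 0.11 (SRSF5 in H1792). Without the first A549 DMSO library SRSF11 was called lower in A549 (-0.38, adjusted p = 0.00147). The GC correction called SRSF4 lower in A549 (-0.24, adjusted p = 0.0085) and H1792 (-0.20, adjusted p = 0.00546), SRSF5 higher in both (0.25, adjusted p = 0.00451, and 0.30, adjusted p = 1.9e-04) and SRSF11 higher in H1792 (0.42, adjusted p = 8.1e-05).

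The hnRNP genes form the larger family. Of 22 tested, 17 fell in A549 (17.8% of all tested genes) and none rose (17.2%), and in H1792 8 fell (18.8%) and 1 rose (16.2%). Their median log2 fold change was -0.56 in A549 and -0.19 in H1792.

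**Figure D3:**
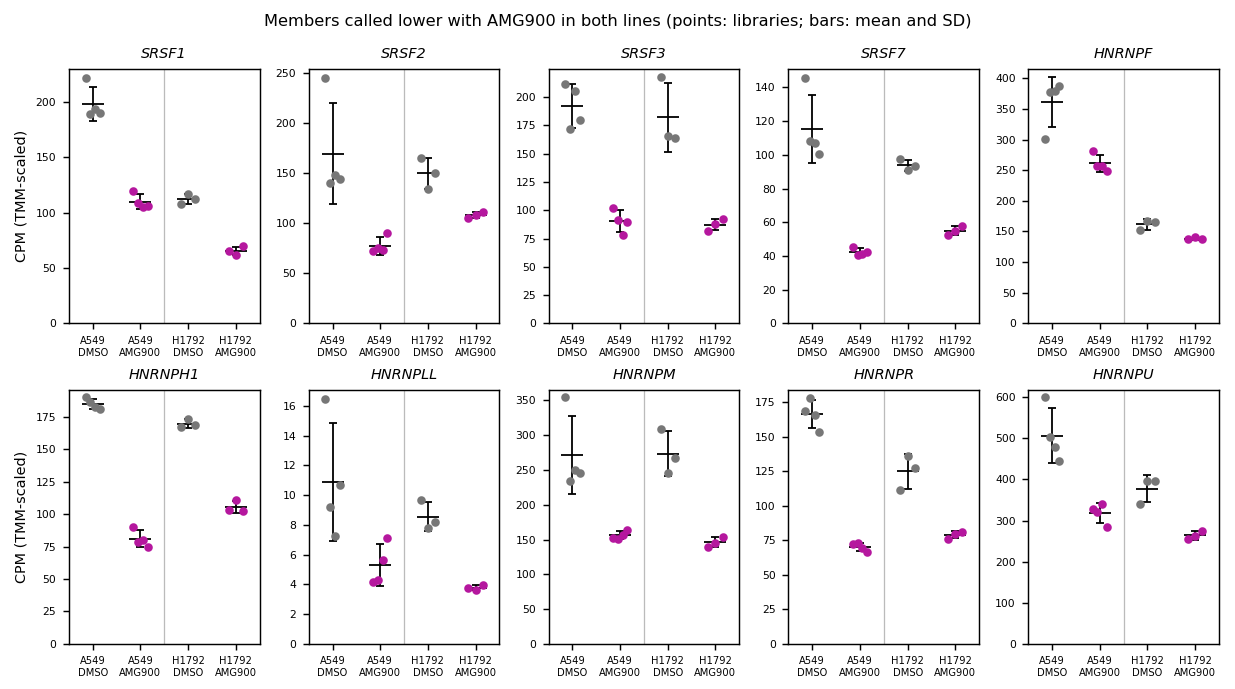
TMM-scaled CPM (y axis, from 0) of the 10 members that fell in both lines, by line and treatment (x axis); each point is a library, and the bars are the mean and SD (n = 4 in A549, n = 3 in H1792). In each panel the AMG900 points lie below the DMSO points of the same line.

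HNRNPR (chr1:23630264-23670829, minus strand), an RNA-binding protein with roles in transcript transport, had the second lowest value in A549. It measured 168, 178, 165 and 154 CPM with DMSO and 72, 72.9, 69.2 and 66.3 CPM with AMG900 in A549. H1792 libraries gave 111, 136 and 127 CPM and 76.1, 79.8 and 81.1 CPM. The treatments were well apart in both lines. For HNRNPR the log2 fold change was -1.25 ± 0.07 in A549 (adjusted p = 5.9e-09), and -0.73 after the GC correction. In H1792 it was -0.66 ± 0.07 (adjusted p = 5.6e-05), but 0.02 after the GC correction (adjusted p = 0.705), which ended the call. The interaction was 0.51 ± 0.10 (adjusted p = 0.00111).

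HNRNPH1 (chr5:179041179-179061785, minus strand) binds runs of G in introns and exons, together with its relatives HNRNPF, HNRNPH2 and HNRNPH3. It had 190, 187, 183 and 181 CPM in the A549 DMSO libraries and 90.1, 78.8, 80.3 and 75 CPM in the AMG900 libraries. The H1792 values were 167, 174 and 169 CPM with DMSO and 103, 111 and 102 CPM with AMG900. The DMSO libraries lay close together within each line, far above the AMG900 libraries. For HNRNPH1 the log2 fold change was -1.19 ± 0.07 in A549 (adjusted p = 9.5e-09) and -0.69 ± 0.05 in H1792 (adjusted p = 8.6e-06), a difference of 0.43 ± 0.09 (interaction, adjusted p = 0.00154).

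HNRNPF (chr10:43881065-43904634, minus strand) gave 301, 377, 379 and 387 CPM with DMSO and 281, 257, 257 and 249 CPM with AMG900 in A549. Its H1792 values were 152, 167 and 166 CPM and 138, 140 and 138 CPM. The first DMSO library was the lowest DMSO library of each line and still above the AMG900 libraries. For HNRNPF the log2 fold change was -0.47 ± 0.08 in A549 (adjusted p = 2.9e-04) and -0.22 ± 0.05 in H1792 (adjusted p = 0.00684), the latter lost without the third DMSO library or any 1 AMG900 library (up to adjusted p = 0.0399). HNRNPH3 fell in A549 from 145 ± 27.7 to 78 ± 8.28 CPM (-0.90 ± 0.12, adjusted p = 3.4e-05). HNRNPH2, whose exons overlap the read-through entry RPL36A-HNRNPH2, was under 6 CPM in every library and was not called.

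HNRNPM, HNRNPLL and HNRNPU completed the set that fell in both lines. HNRNPM (chr19:8509651-8553998, plus strand), a splicing regulator known for its part in epithelial-mesenchymal isoform switches, measured 355, 235, 250 and 245 CPM with DMSO and 152, 151, 157 and 164 CPM with AMG900 in A549. In H1792 it measured 308, 245 and 267 CPM and 140, 145 and 154 CPM. The first DMSO library was the highest in both lines, and the treatments did not overlap. For HNRNPM the log2 fold change was -0.79 ± 0.11 in A549 (adjusted p = 4.0e-05) and -0.90 ± 0.08 in H1792 (adjusted p = 1.5e-05), and it was -0.95 and -1.06 after the GC correction.

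HNRNPLL (chr2:38789111-38830728, minus strand), known for the CD45 isoform switch of lymphocytes, was a low gene. It gave 16.4, 9.2, 7.25 and 10.7 CPM with DMSO and 4.16, 4.28, 5.66 and 7.11 CPM with AMG900 in A549. The H1792 libraries gave 9.66, 7.82 and 8.21 CPM and 3.73, 3.65 and 3.98 CPM. In A549 the highest AMG900 library nearly met the lowest DMSO library, and in H1792 the groups were far apart. For HNRNPLL the log2 fold change in A549 was -0.97 ± 0.25 (adjusted p = 0.00495), a call lost without the fourth DMSO library or without any 1 of the first 3 AMG900 libraries (-1.0 to -0.88, adjusted p up to 0.0198) and after the GC correction (-0.49, adjusted p = 0.121). In H1792 it was -1.18 ± 0.12 (adjusted p = 2.9e-05).

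HNRNPU (chr1:245003940-245027862, minus strand), a scaffold protein that binds chromatin and RNA, has exons that overlap COX20 on the other strand. Its values were 601, 502, 478 and 444 CPM with DMSO and 328, 320, 339 and 285 CPM with AMG900 in A549. They were 339, 397 and 396 CPM and 254, 263 and 276 CPM in H1792. The treatments did not overlap in either line. For HNRNPU the log2 fold change was -0.67 ± 0.09 in A549 (adjusted p = 3.0e-05) and -0.51 ± 0.07 in H1792 (adjusted p = 1.6e-04). Its relative HNRNPUL1 fell in A549 by 22.7% (-0.37 ± 0.06, adjusted p = 1.2e-04), and HNRNPUL2 was called in neither line with all libraries. In A549 HNRNPUL2 was -0.43 ± 0.18 (adjusted p = 0.0637), but -0.60 and called lower (adjusted p = 1.6e-05) without the first DMSO library, which had 25.4 CPM where the other DMSO libraries had 48.4 to 58.4. HNRNPUL2 shares exon positions with the read-through entry HNRNPUL2-BSCL2 on its own strand. How shared reads were counted is not given in the sources used here, so its values are uncertain.

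In the interaction test, which compares the response to AMG900 between the lines, 11 of 34 members were higher in H1792 than in A549, where 5.37% of 14769 tested genes were, and 1 was lower, where 9.17% were. Without both first DMSO libraries these counts were 14 and 2. Leaving out the first A549 DMSO library alone added HNRNPH3 (0.74), HNRNPUL1 (0.26), HNRNPUL2 (0.64) and SRSF10 (1.02) as higher and SRSF9 (-0.44) as lower. Leaving out the first H1792 DMSO library alone ended the calls of HNRNPA1 and HNRNPD. Of the 12 members called with all libraries 11 were hnRNP genes, among them all 3 of the AB/D group and 4 of 5 in the A/B group, which held the 5 largest called differences. The median difference was 0.24 over the members and -0.10 over all genes.

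HNRNPA2B1 (chr7:26210771-26241149, minus strand), one of the core hnRNP particle proteins and a reader of RNA marks, overlaps CBX3 and NFE2L3 on the other strand. It measured 850, 833, 782 and 784 CPM with DMSO and 439, 428, 386 and 366 CPM with AMG900 in A549. H1792 had 453, 517 and 489 CPM and 477, 492 and 477 CPM. The A549 groups were far apart, and the H1792 AMG900 libraries lay inside the DMSO range. For HNRNPA2B1 the log2 fold change was -1.0 ± 0.07 in A549 (adjusted p = 4.5e-08) and -0.01 ± 0.06 in H1792 (adjusted p = 0.864), where the GC correction gave 0.43 (adjusted p = 9.0e-06). The interaction was 0.92 ± 0.09 (adjusted p = 4.4e-07), and 0.87 with the GC correction.

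HNRNPDL (chr4:83343718-83351615, minus strand), a relative of hnRNP D, had the largest positive interaction of the members. Its A549 values were 103, 101, 99.6 and 93.8 CPM with DMSO and 59.9, 48.4, 55.1 and 51.3 CPM with AMG900. In H1792 they were 72.3, 89.5 and 87.3 CPM and 88.4, 94.4 and 94.1 CPM. The A549 groups were apart, while in H1792 the lowest AMG900 library was below the highest DMSO library. For HNRNPDL the log2 fold change was -0.89 ± 0.08 in A549 (adjusted p = 9.4e-07) and 0.15 ± 0.08 in H1792 (adjusted p = 0.132), with an interaction of 0.97 ± 0.12 (adjusted p = 4.5e-06).

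HNRNPD (chr4:83273651-83295656, minus strand), also called AUF1, binds AU-rich elements and speeds the decay of their transcripts. It gave 247, 163, 153 and 150 CPM with DMSO and 93.3, 84.4, 92.8 and 86.9 CPM with AMG900 in A549. It gave 187, 214 and 206 CPM and 175, 184 and 177 CPM in H1792. The first A549 DMSO library was far above the rest of its group, and AMG900 lay below DMSO in both lines. For HNRNPD the log2 fold change was -0.98 ± 0.13 in A549 (adjusted p = 2.9e-05) and -0.18 ± 0.06 in H1792 (adjusted p = 0.0284, and 0.05 with the GC correction), called lower without the first DMSO library (-0.26, adjusted p = 1.9e-04). The interaction was 0.72 ± 0.17 (adjusted p = 0.00339), a call lost without the second H1792 AMG900 library (0.70) or the first H1792 DMSO library (0.65).

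HNRNPA3 (chr2:178077422-178088687, plus strand), a paralogue of HNRNPA1 and HNRNPA2B1, shares exon positions with NFE2L2 on the other strand. It measured 194, 240, 223 and 232 CPM with DMSO and 166, 147, 154 and 133 CPM with AMG900 in A549. In H1792 it measured 74.8, 94 and 82.1 CPM and 95.2, 97.9 and 97.2 CPM. The groups did not overlap in either line, with AMG900 lower in A549 and higher in H1792. For HNRNPA3 the log2 fold change was -0.57 ± 0.09 in A549 (adjusted p = 7.5e-05) but -0.10 and not called after the GC correction, and 0.21 ± 0.08 in H1792 (adjusted p = 0.0422). In H1792 HNRNPA3 was called higher after the GC correction (0.71, adjusted p = 1.9e-06) and without the second DMSO library (0.29, adjusted p = 0.00172). The interaction was 0.71 ± 0.12 (adjusted p = 2.9e-04) and 0.70 with the correction.

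HNRNPC (chr14:21677295-21737653, minus strand), the core particle protein that binds runs of U and keeps Alu-derived exons out of transcripts, was the sole member called in opposite directions. It had 677, 803, 744 and 777 CPM with DMSO and 686, 642, 608 and 576 CPM with AMG900 in A549. H1792 libraries had 478, 622 and 545 CPM and 706, 709 and 698 CPM. In A549 the treatments overlapped by the first library of each, and in H1792 all AMG900 libraries were above all DMSO libraries. For HNRNPC the log2 fold change in A549 was -0.26 ± 0.07 (adjusted p = 0.00914), but 0.15 after the GC correction (adjusted p = 0.0861), and the call was lost in 6 of 8 fits that left out 1 library (all but those without the first DMSO or the first AMG900 library, -0.27 to -0.22). In H1792 it was 0.36 ± 0.08 (adjusted p = 0.0038), lost without the third DMSO library or any 1 AMG900 library (0.35 to 0.37, adjusted p up to 0.0194). The interaction was 0.54 ± 0.11 (adjusted p = 0.00162) and was called in 14 of 14 fits without 1 library.

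**Figure D4:**
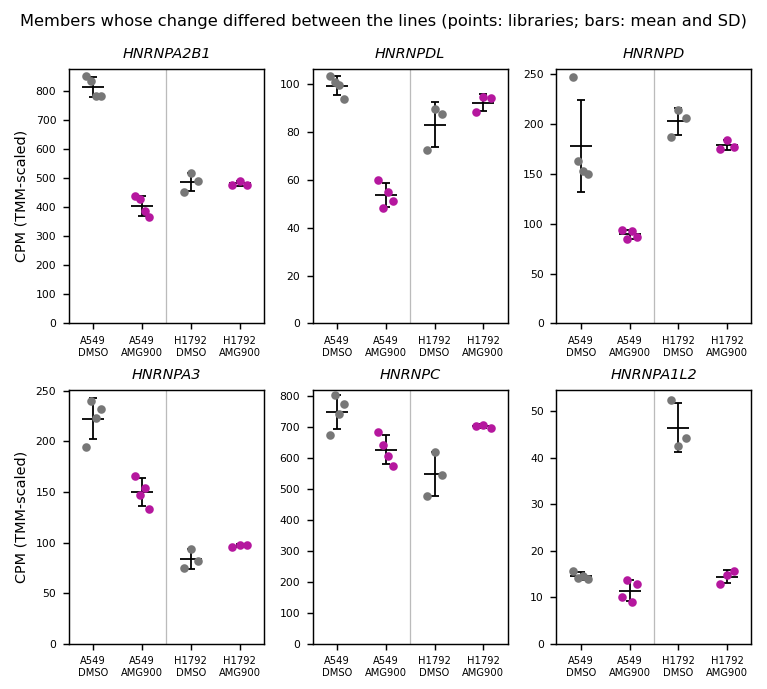
TMM-scaled CPM (y axis, from 0) of 6 members whose response differed between the lines, by line and treatment (x axis); points are libraries, bars the mean and SD (n = 4 in A549, n = 3 in H1792). For HNRNPA2B1, HNRNPDL, HNRNPD and HNRNPA3 the A549 AMG900 points lie below the DMSO points while the H1792 groups lie close together. For HNRNPA1L2 the wide gap is in H1792.

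HNRNPA1L2 (chr13:53216566-53217908, plus strand) was the sole member called lower in H1792 than in A549 in the interaction. Of the 34 tested members 12 had a difference in that direction, and SRSF9 was called too without the first A549 DMSO library (-0.44, adjusted p = 0.00446) or the second H1792 DMSO library (-0.47, adjusted p = 0.00874). It is a retrocopy of HNRNPA1, with 98.3% identity over 811 aligned bases of transcript, and 45.7% of its stretches of 50 bases also occur in HNRNPA1. It gave 15.7, 14.2, 14.5 and 13.9 CPM with DMSO and 10, 13.8, 9.06 and 12.8 CPM with AMG900 in A549. In H1792 it gave 52.5, 42.6 and 44.4 CPM and 12.9, 14.8 and 15.7 CPM. No AMG900 library reached the DMSO range of its line, and the gap was far wider in H1792. For HNRNPA1L2 the log2 fold change was -0.34 ± 0.15 in A549 (adjusted p = 0.0793) and -1.69 ± 0.10 in H1792 (adjusted p = 2.2e-06), with an interaction of -1.42 ± 0.19 (adjusted p = 1.9e-05) called in 14 of 14 fits without 1 library. HNRNPA1 itself fell in A549 from 283 ± 34.3 to 201 ± 17.9 CPM (-0.50 ± 0.09, adjusted p = 4.8e-04), a call ended by the GC correction (-0.22, adjusted p = 0.0325). In H1792 HNRNPA1 was 349 ± 33.7 with DMSO and 374 ± 14.3 CPM with AMG900 (0.10, adjusted p = 0.255), and called higher after the correction (0.30, adjusted p = 2.7e-04). How the reads of the pair were divided is not given in the sources used here, so both values are uncertain.

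HNRNPCL2, a retrocopy with 90.4% identity to HNRNPC over 1106 aligned bases and 0.813% of its stretches of 50 bases shared with it, was a low gene. It had 2.82, 2, 1.5 and 0.89 CPM with DMSO and 1.13, 1.61, 0.431 and 1.23 CPM with AMG900 in A549. In H1792 it had 3.15, 2.83 and 2.6 CPM and 0.605, 0.779 and 1.44 CPM. The A549 groups overlapped and the H1792 groups did not. For HNRNPCL2 the log2 fold change was -0.61 ± 0.45 in A549 (adjusted p = 0.283) and -1.62 ± 0.29 in H1792 (adjusted p = 9.6e-04), and the interaction of -1.10 ± 0.56 was not called (adjusted p = 0.166).

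HNRNPL (chr19:39327010-39342987, minus strand), which binds CA repeats, had the highest level per length of all members with DMSO, 264 ± 6.31 CPM per kb of transcript in A549 and 377 ± 4.10 in H1792, above the next gene in every DMSO library. It measured 590, 582, 600 and 590 CPM with DMSO and 463, 464, 446 and 446 CPM with AMG900 in A549. H1792 had 778, 796 and 793 CPM and 817, 802 and 792 CPM. AMG900 was below DMSO in A549 alone, and the groups overlapped in H1792. For HNRNPL the log2 fold change was -0.38 ± 0.06 in A549 (adjusted p = 7.9e-05) and 0.03 ± 0.04 in H1792 (adjusted p = 0.643, and -0.17 with the GC correction), with an interaction of 0.33 ± 0.07 (adjusted p = 0.00216). After HNRNPL the order per length in A549 was HNRNPC (227 ± 17.6), HNRNPA2B1 (214 ± 6.16), HNRNPAB (203 ± 12.1) and HNRNPK (195 ± 21.9), neighbours whose ranges over libraries overlap.

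The other hnRNP genes stood between these. HNRNPAB, a relative of hnRNP D, fell in A549 from 375 ± 18.5 to 255 ± 19.9 CPM (-0.56 ± 0.07, adjusted p = 2.0e-05) and had an interaction of 0.41 ± 0.09 (adjusted p = 0.00299), a call lost without the third H1792 DMSO or the second H1792 AMG900 library (0.38 to 0.40, adjusted p up to 0.0134). HNRNPA0 fell in A549 by 15.7% (-0.25 ± 0.06, adjusted p = 0.00512), a call lost in 5 of 8 fits without 1 library and reversed in sign by the GC correction (0.13). HNRNPK, which binds runs of C, was called in neither line with all libraries (-0.17 ± 0.08 in A549 and -0.07 ± 0.08 in H1792). Without the first DMSO library HNRNPK was called lower in A549 (-0.25, adjusted p = 8.6e-04) and in H1792 (-0.19, adjusted p = 0.00232), while the GC correction called it higher in H1792 (0.19, adjusted p = 0.00903). HNRNPA1 had an interaction of 0.52 ± 0.13 (adjusted p = 0.00548), a call lost in 9 of 14 fits without 1 library.

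**Figure D5:**
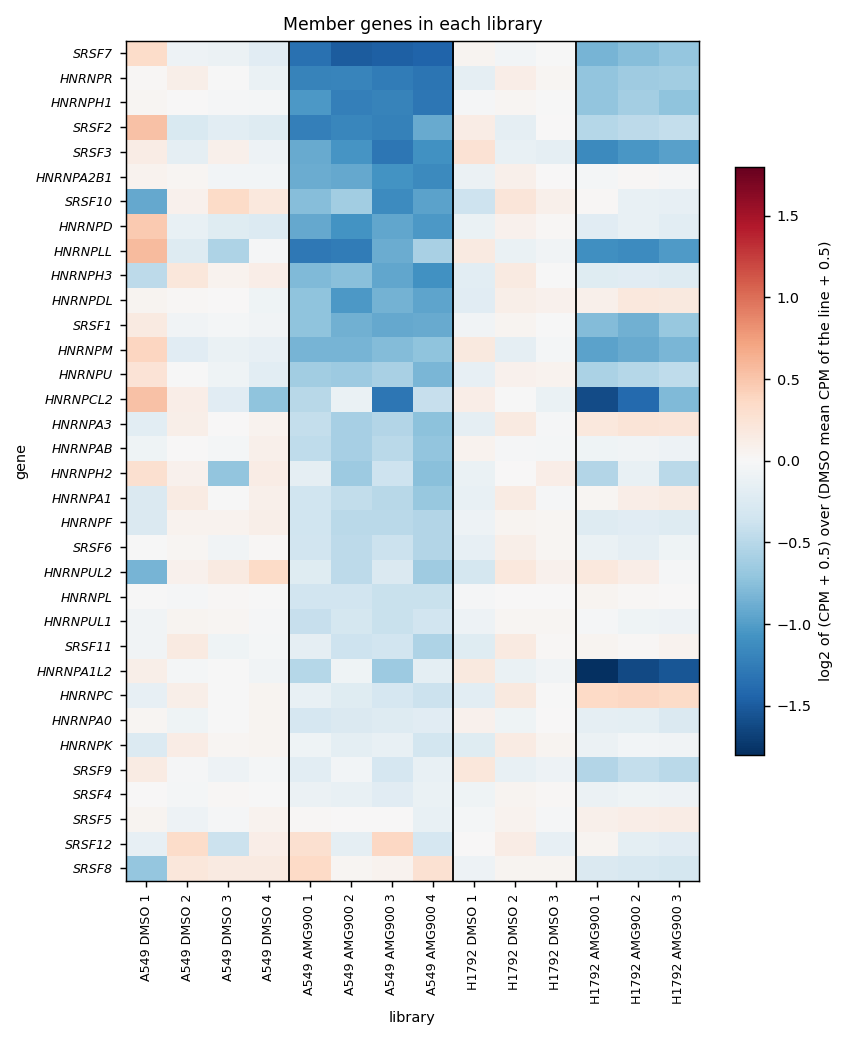
Level of each tested member (y axis, ordered by the A549 log2 fold change) in each of the 14 libraries (x axis), as the log2 of CPM plus 0.5 over the mean CPM of the line's DMSO libraries plus 0.5 (blue lower, red higher). The 4 A549 AMG900 columns are blue for most genes, and in the first A549 DMSO column SRSF2, HNRNPD and HNRNPLL stand high while SRSF10, SRSF8 and HNRNPUL2 stand low.

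With DMSO alone the shares of members called between the lines were near those of all genes. With both lines scaled together, 13 members were lower in H1792 than in A549, where 31.9% of all tested genes were, and 9 were higher, where 34.2% were, so that the members' shares were 38.2% and 26.5%. Without the first H1792 DMSO library 8 were lower, with HNRNPC, HNRNPH3, HNRNPR, HNRNPU and HNRNPUL2 lost. As higher, SRSF9 was lost there and HNRNPD added (0.42). Without the first A549 DMSO library HNRNPD (0.48) and HNRNPM (0.26) were added as higher and SRSF10 (-0.82) as lower, while HNRNPUL1 was lost. SRSF6 was 128 ± 3.84 CPM in A549 and 52.4 ± 4.62 CPM in H1792 (-1.29 ± 0.07, adjusted p = 5.1e-12). HNRNPA3 was 212 ± 20.5 and 85.6 ± 9.79 CPM (-1.32 ± 0.09, adjusted p = 1.0e-10), and HNRNPF 345 ± 41.7 and 165 ± 8.48 CPM (-1.07 ± 0.08, adjusted p = 5.2e-10). SRSF4 was higher in H1792, at 162 ± 7.49 CPM against 72.3 ± 1.75 in A549 (1.17 ± 0.06, adjusted p = 1.7e-12), and so was HNRNPA1L2, at 47.6 ± 5.49 against 13.9 ± 0.661 CPM (1.78 ± 0.13, adjusted p = 4.4e-10). The lines were grown in different media and sequenced to different depths, and these cannot be told apart from the line itself. The A549 and H1792 DMSO libraries also enter the interaction.

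Members share features that their names did not fix. Transcripts marked as targets of NMD are annotated for 26 of the 34 tested members (76.5%), against 47.3% of tested protein-coding genes in A549 and 46% in H1792, and for 19 of the 23 members that fell in A549 and 11 of the 14 that fell in H1792. The members that fell thus lay near the share of all tested members, and the share over all genes that fell was not taken. The number of annotated transcripts, 1 for HNRNPA0 and 84 for HNRNPA1, was not taken into account. Counts per gene do not separate the NMD transcripts from the coding ones.

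The partners of these proteins were followed in lists chosen for their roles, and their counts stand against 17.8% of all tested genes lower and 17.2% higher in A549, and 18.8% and 16.2% in H1792. Partner values come from the fits with all libraries and no GC correction. Whether they hold with the correction or without 1 library was not examined. Of 9 tested kinases of SR proteins and their importer, 5 fell and 1 rose in A549, and 3 fell and 2 rose in H1792. PRPF4B, a kinase of the tri-snRNP, fell in A549 from 31.2 ± 3.19 to 16.9 ± 2.45 CPM (-0.88 ± 0.13, adjusted p = 6.9e-05). CLK3 rose in A549 (0.51 ± 0.08, adjusted p = 1.2e-04) and in H1792 (0.32 ± 0.06, adjusted p = 0.00118). In H1792 CLK2 rose (0.65 ± 0.07, adjusted p = 6.9e-05) and DYRK1A fell (-0.74 ± 0.14, adjusted p = 0.00151). DYRK1A was called lower in A549 too (-0.70 ± 0.20, adjusted p = 0.00954). Of 11 SR-related coactivators, 7 fell in A549 and 2 in H1792, none rising. TRA2B, an SR-like activator, was the lowest in A549 (-0.96 ± 0.09, adjusted p = 8.8e-07), and U2AF1, which reads the 3′ splice site, the least lowered of those called (-0.33 ± 0.08, adjusted p = 0.00438). The pair that fell in H1792 was SON, a protein of nuclear speckles (-0.70 ± 0.06, adjusted p = 9.4e-06), and TRA2B (-0.51 ± 0.07, adjusted p = 1.8e-04). Of 11 hnRNP-like genes under other symbols, 7 fell in A549, from SYNCRIP, a relative of HNRNPR (-0.88 ± 0.07, adjusted p = 2.5e-07), to ELAVL1, which binds AU-rich elements (-0.38 ± 0.10, adjusted p = 0.0049). In H1792 5 fell, PTBP3 the most (-0.73 ± 0.09, adjusted p = 1.3e-04), and 1, RALY, a relative of HNRNPC, rose (0.31 ± 0.06, adjusted p = 0.0012).

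Core spliceosome genes were counted in the same way. Of 14 core proteins of the U snRNPs, 11 fell and none rose in A549, while 4 fell and 4 rose in H1792. The called A549 values ran from SNRPD1 (-0.77 ± 0.10, adjusted p = 3.0e-05) to SNRPD3 (-0.28 ± 0.07, adjusted p = 0.00398), both of the Sm ring. In H1792 they ran from SNRPE, also of the Sm ring (-0.53 ± 0.08, adjusted p = 3.1e-04), to SNRPA of the U1 snRNP (0.33 ± 0.05, adjusted p = 3.1e-04). Of 18 SF3 and U5 or tri-snRNP proteins, 10 fell and none rose in A549, and 4 fell and 2 rose in H1792. SF3B1, the branch point factor, was the lowest called in both (-1.27 ± 0.18, adjusted p = 5.2e-05, and -0.69 ± 0.10, adjusted p = 2.2e-04). Its partner SF3B2 was the least lowered of those called in A549 (-0.22 ± 0.06, adjusted p = 0.00715), and SF3B4 rose in H1792 (0.72 ± 0.09, adjusted p = 1.2e-04).

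Of a list of further splicing regulators, some of them restricted to certain cell types, 6 of 9 tested fell and 1 rose in A549, and 6 of 11 fell and 2 rose in H1792. MBNL1 was the lowest called in A549 (-1.16 ± 0.22, adjusted p = 4.9e-04) and its relative MBNL2 in H1792 (-1.29 ± 0.11, adjusted p = 1.1e-05). NOVA1, known from neurons, rose in A549 (0.90 ± 0.23, adjusted p = 0.00504) and in H1792 (0.53 ± 0.12, adjusted p = 0.00377). NOVA2 rose in H1792 from 0.359 ± 0.147 to 1.08 ± 0.106 CPM (1.62 ± 0.32, adjusted p = 0.0021). Of 10 NMD genes, 4 fell and 1 rose in A549 and 2 fell and 2 rose in H1792. SMG1, the kinase of UPF1, was the lowest called in both (-1.15 ± 0.14, adjusted p = 9.3e-06, and -0.83 ± 0.11, adjusted p = 1.9e-04). SMG6, the endonuclease of NMD, rose in A549 (0.61 ± 0.07, adjusted p = 1.2e-05), and SMG9, a partner of SMG1, rose in H1792 (0.48 ± 0.06, adjusted p = 1.3e-04). In H1792 the NMD, kinase, coactivator, U snRNP and SF3 counts lay near the shares of all genes or went both ways, and nothing is read from them.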

How the data were processed

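RNA was extracted with an RNeasy kit and sequenced. The authors deposited a table of raw counts for each cell line, holding whole numbers of reads per gene symbol with no normalization. The submitters' processing notes name STAR, HTSeq, hg19 and GRCh37, while versions, annotation and strand setting are not given in the sources used here. Both tables list 26760 entries, and 28 H1792 entries bearing calendar dates in place of symbols were left out. No other column of values was left unused (0 in each table).

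Groups were taken from the labels. The treatment protocol names 3 replicates per treatment, while A549 has 4 libraries of each, and nothing says how the libraries relate to separate cultures beyond this, so p-values measure the spread between these libraries, which may be technical. No 2 libraries were alike within sampling noise (chi-square per gene at least 3.24). Library totals and a biological coefficient of variation of 12.8% in A549 and 9.60% in H1792 set the precision.

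In R 4.3.3, edgeR 4.0.16 (filterByExpr, TMM factors, quasi-likelihood test, Benjamini-Hochberg adjustment, FDR threshold of 0.01, in place of the DESeq2 test of the study) was fitted to each line, and to all 14 libraries for the interaction and the comparison of DMSO libraries. DESeq2 1.42.0, other scalings and filters, a GC correction (a spline of GC content fitted to every library, 5 degrees of freedom), a replicate term and fits without each library were alternatives. Simulated data with known changes in 200 genes were tested first: 91.9% of 2-fold changes were recovered in A549 (13052 genes) and 84.5% in H1792 (14881 genes), and 63.9% and 59.0% of 1.5-fold changes. For the interaction (14299 genes) these were 77.8% and 13.7%. The simulation gave every gene the same spread, below the coefficients of variation estimated in A549 (12.8%) and over all 14 libraries (11.3%). The shares recovered in A549 and in the interaction may therefore be too high, and they do not hold for genes of wider spread.

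Library values are printed for members called in both lines, the 3 largest called changes in each direction and line, the 5 largest called interactions and the 3 members of highest level per length in A549 DMSO. Partner genes named are those of highest and lowest called change in a list in each line. A gene named for 1 line may be called in the other too. The members and lists were chosen with earlier results of these data known. Of the listed genes, 22367 matched the GENCODE annotation of GRCh37 by current and 1224 by older symbol, 359 matched more than 1 gene and 2782 none. HNRNPCL3 and HNRNPCL4 were among the unmatched. No pairing of libraries by replicate number was visible in the values.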

Additional observations from a re-analysis of the deposited data

Results flagged for a closer look

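Among the 68 sets of 4 A549 libraries examined for the members, 10 had 1 library far from the other 3, by the gap to the nearest library as a share of the whole range, and chance gives such a gap in about 1 in 20 sets. Of these, 6 lay in the first A549 DMSO library, the smallest, with shares of 0.869 for HNRNPD, 0.883 for HNRNPF, 0.875 for HNRNPM, 0.862 for SRSF1, 0.921 for SRSF2 and 0.933 for SRSF8. It was the highest library for HNRNPD, HNRNPM, SRSF1 and SRSF2 and the lowest for HNRNPF and SRSF8. The others were SRSF11 in the second DMSO library (0.8293), SRSF2 (0.833) and SRSF5 (0.941) in the fourth AMG900 library and SRSF4 in the third (0.8385).

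The response to AMG900 differed between the lines for 12 members by the interaction test. The log2 fold change in H1792 minus that in A549 was 0.97 for HNRNPDL, 0.92 for HNRNPA2B1, 0.72 for HNRNPD, 0.71 for HNRNPA3, 0.58 for SRSF7, 0.54 for HNRNPC, 0.52 for HNRNPA1, 0.51 for HNRNPR, 0.43 for HNRNPH1, 0.41 for HNRNPAB and 0.33 for HNRNPL. It was -1.42 for HNRNPA1L2.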

How the results depend on the processing

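Counts of called members kept their order under most alternatives. Requiring a 2-fold change left 7 lower in A549, 4 lower and 0 higher in H1792, 0 higher in the interaction, and 4 lower and 2 higher in H1792 DMSO than in A549 DMSO. The GC correction gave 1 higher in A549 and 9 higher in H1792. Scaling by total counts gave 0 higher in H1792, 1 member with every AMG900 library above every DMSO library, and a median of -0.25. An FDR threshold of 0.05 gave 2 higher in H1792 and 2 lower in the interaction. Leaving out both first DMSO libraries, an alternative added after seeing the data, also gave 2 lower in the interaction. Without each library in turn, A549 had 19 to 26 lower and 0 higher, H1792 12 to 20 lower and 0 to 2 higher, the interaction 8 to 15 higher and 1 to 2 lower, and the DMSO comparison 7 to 10 higher and 8 to 14 lower. The medians ranged from -0.61 to -0.48 and from -0.27 to -0.14, and members with every AMG900 library below every DMSO library numbered 24 to 28 in A549 (0 above) and 19 to 24 in H1792 (3 to 6 above). The cause of these moves was not tested.

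Signs also reversed. Over all tested members the GC correction reversed 5 in A549, 11 in H1792 and 3 in the interaction. Among members whose library values are printed these were HNRNPC in A549 (0.15), HNRNPR (0.02, from -0.66), HNRNPA2B1 (0.43), HNRNPD (0.05) and HNRNPL (-0.17) in H1792, and HNRNPU in the interaction (-0.03). In H1792, HNRNPA2B1 was 0.00 with at least 10 counts in every library and 0.02 without the second DMSO library, and HNRNPL was -0.04 by total counts and -0.01 without the first DMSO library. The interaction of HNRNPU was -0.01 to 0.13 over the fits without 1 library (-0.01 without either first DMSO library) and -0.08 without both. That of SRSF1 was 0.07 by DESeq2 and its size factors, 0.01 with no filter, 0.08 by total counts and -0.05 to 0.04 over the fits without 1 library. That of SRSF3 was 0.03 by DESeq2 and its size factors, 0.04 by total counts, 0.06 without both first DMSO libraries and -0.12 to 0.09 over the fits without 1 library. Over the named members, 867 alternative values stayed on their side of the threshold, 32 lost and 5 gained a call, and 30 reversed in sign.

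Libraries of the same number did not deviate together (correlations of -0.069 to 0.015), so no pairing by number was visible. These values cannot show whether cultures were set up in pairs. A replicate block gave 19 lower and 0 higher members in A549, 12 lower and 1 higher in H1792, and 8 higher and 1 lower in the interaction.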
